A study of Mus musculus with 25 samples.

Results

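A set of genes of cell proliferation were followed in the hypothalamus of mice carrying a subcutaneous tumor, namely Mcm5, Top2a, Bub1b, Birc5, Dbf4, Prmt5 and Tob2. They were selected by name, with the log2 ratios of tumor over PBS of these same arrays already known, and they make up 7 of the 8726 genes named on the arrays. Their log2 ratios of tumor over PBS are therefore a description, and the counts of genes past a threshold in that comparison are given for all genes, with nothing read from the members among them. Brightness and the effect of the dye were not the comparison that chose them and were tested. These tests were still set with earlier results known, and a dye effect enters the ratio of any single array. The test of the dye is therefore not fully independent of the choice of genes. The animals were male BALB/c mice aged 8 weeks. The tumor group received 1000000 cells of the BALB/c colon carcinoma line CT-26.WT in 300 µl PBS under the skin. The control group received the PBS alone. Mice of both groups were decapitated at 18, 72 or 192 h, and the dissected hypothalamus gave the RNA. Each in-house printed oligonucleotide array held the tumor group in one dye, Cy3 or Cy5, and the PBS group in the other. Replicates 1 and 2 of a time were polyA RNA in a single dye orientation, with tumor in Cy5 in replicate 1 and in Cy3 in replicate 2. The later replicates were total RNA measured in both orientations. The values used came from 19 arrays of 11 biological replicates, of which 5 belonged to 18 h, 2 to 72 h and 4 to 192 h. Nothing in the labels tells 1 mouse from a pool, so a p-value covers the spread among these replicates, part of which may be technical.

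The adult hypothalamus is built mainly from neurons that have left the cell cycle. Dividing cells are sparse in it and lie among oligodendrocyte precursors, tanycytes, microglia and vessel cells. Before a cell copies its DNA, the MCM helicase, of which Mcm5 is a subunit, is loaded at origins, and the kinase Cdc7 with its activator Dbf4 starts the helicase. Top2a is the topoisomerase that untangles sister chromatids, Bub1b is a kinase-like protein of the spindle checkpoint, and Birc5 (survivin) is a subunit of the complex that guides chromosome attachment and cytokinesis. Transcripts of these genes are scarce in resting cells and rise in S phase, G2 or mitosis. The remaining genes differ in kind. Prmt5 methylates arginines of histones and of splicing proteins in many cell types, neurons included, and Tob2 belongs to the Tob/Btg family, which slows cell growth and recruits the enzymes that shorten polyA tails.

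Cell cycle genes of vertebrates share promoter elements that a sequence can show. The letters searched on both strands were CCAAT for the CCAAT box, bound by NF-Y, TTTGAA or TTTAAA for the cell cycle homology region (CHR), and, for the E2F site, TTCCCGC, its variant TTGGCGC, the further variant TTGCCGC or the variant TTCGCGC. All 7 genes had a promoter in the RefSeq table (GRCm38.p6), from 250 bases before to 50 bases after the gene start. Mcm5 and Top2a are printed because they hold the most matches, which stand in capitals. In Mcm5, E2F letters overlap each other.
Mcm5 promoter, chr8:75109259-75109558, plus strand: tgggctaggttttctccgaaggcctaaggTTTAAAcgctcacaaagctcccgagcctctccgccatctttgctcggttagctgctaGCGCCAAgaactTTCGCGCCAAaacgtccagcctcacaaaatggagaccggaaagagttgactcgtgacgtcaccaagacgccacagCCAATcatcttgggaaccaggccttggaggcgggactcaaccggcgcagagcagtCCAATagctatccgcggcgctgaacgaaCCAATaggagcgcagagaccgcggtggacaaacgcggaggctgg
Top2a promoter, chr11:99024140-99024439, minus strand: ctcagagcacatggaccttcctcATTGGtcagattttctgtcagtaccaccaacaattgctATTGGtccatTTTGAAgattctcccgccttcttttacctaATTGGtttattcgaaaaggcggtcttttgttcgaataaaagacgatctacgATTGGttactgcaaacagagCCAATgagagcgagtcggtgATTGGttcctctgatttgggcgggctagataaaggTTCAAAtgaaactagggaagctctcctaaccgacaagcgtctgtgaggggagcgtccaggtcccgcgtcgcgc
Mcm5 held all 3 kinds, with 3 CCAAT boxes, 1 CHR match and 3 E2F matches. Top2a held 6 CCAAT boxes and 2 CHR matches, and Bub1b held 1 of each. Birc5 and Dbf4 held 1 CHR match each and no other. Prmt5 held 4 CCAAT boxes and no CHR match, and Tob2 a single E2F match. Of all 32851 promoters of this length in the table, 37.4% held a CCAAT box, 27.6% a CHR match, 10.7% both and 9.57% an E2F match. A match describes the letters of a window and says nothing of binding in these mice.

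The genes ranged from dim to fairly bright on these arrays. Each array had been scanned 3 times, and a scan gave a ratio for a spot where neither channel was at or below 0. The 7 genes were printed on 10 spots, with Birc5, Dbf4 and Tob2 on 2 each. Bub1b was measured in 40 of 57 scans, Tob2 in 39 by its brighter first spot, Prmt5 and the first spot of Dbf4 in 32 each, Top2a in 28 and Mcm5 in 22. The first spot of Birc5 was measured in 10 scans and its second in 16, against a median of 25 over all annotated spots. On a brightness rank from 0 to 100 within each array, the median was highest for the first spot of Dbf4 (79.9), followed by Bub1b (66.5), Tob2 (62.4), Prmt5 (49.9), Top2a (41.5), Mcm5 (34) and Birc5 (28.2). The rank takes the mean of both channels, and in the total RNA replicates the first spot of Dbf4 had 7.29-fold more signal in Cy3 than in Cy5. Its second spot had a median rank of 33.6. The ranges over arrays overlapped widely between these genes, and ranks of different probes do not order transcript levels. These intensities already have the local background subtracted. Scans in which both subtracted intensities still exceeded the local background itself numbered 23 for Bub1b, 6 for Mcm5 and 1 for the first spot of Birc5. The number of arrays, and how far a spot lay over background, limit the precision of every value below.

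**Figure D1:**
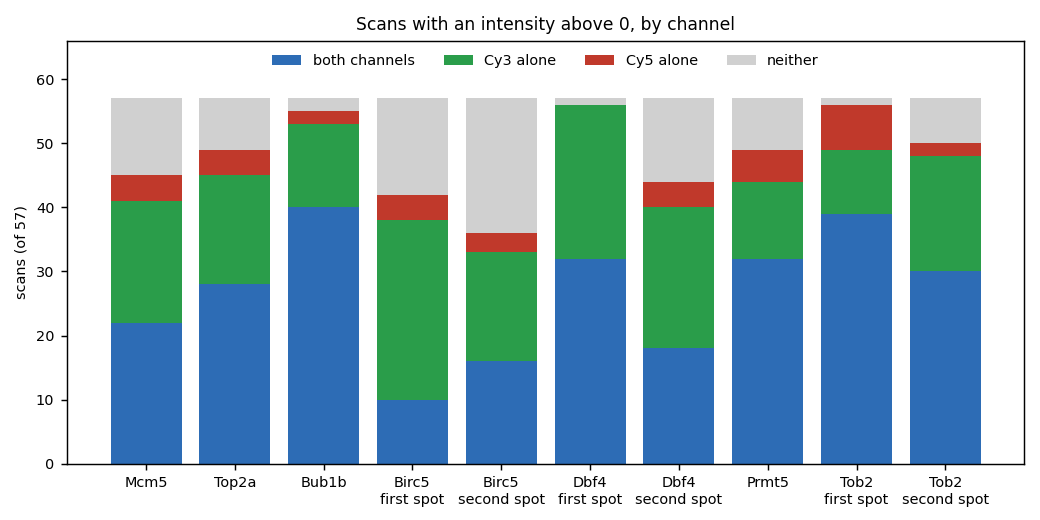
Stacked bars of the 57 scans per spot (10 spots of 7 genes), divided by whether the intensity was above 0 in both channels, in Cy3 alone, in Cy5 alone or in neither. Bub1b reached 40 scans with both channels, the first spot of Birc5 reached 10, and the first spot of Dbf4 had 24 scans with Cy3 alone and 0 with Cy5 alone.

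The tissue label could be set against marker genes by the same brightness rank. Of 10 hypothalamic neuron markers on the arrays, 5 had a median rank above 75, with a range of 48.4 to 98.8 over the list. None of the 3 markers of oligodendrocyte precursors, 6 of microglia and macrophages or 5 of tanycytes, ependyma and choroid plexus had one. For endothelium and mural cells 1 of 3 had one, and for astrocytes 2 of 3. Of 5 pituitary markers, 2 had one, at up to 92.1. Spots measured per array numbered 3056 to 9839, and 34.3% of the intensities were 0. The arrays of a dye-swapped replicate, turned the same way, correlated across genes at -0.559 to 0.041 in the 7 pairs. Genes are not independent replicates, and this describes the arrays alone. In these bulk samples, fewer cells of a type and less RNA per cell cannot be told apart. The direction of every ratio is likely rather than settled, because the scanner files name their channels A and B without a dye, and these were read as Cy3 and Cy5 from the order of the labels.

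The comparison of tumor with PBS at each time asks whether proliferation genes shift in the hypothalamus while a tumor grows at a distant site. No gene of the arrays passed an adjusted p of 0.05 in limma, which is 0% of the 5054 genes tested at 18 h, of 1931 at 72 h and of 2793 at 192 h, and likewise 0% of 2494 for the change from 18 h to 192 h. Of the 7 proliferation genes, 6 had enough replicates for a test at 18 h, 2 did at 72 h and 3 did at 192 h, and none of them passed. Birc5 had too few at every time. At an unadjusted p under 0.05, 18 h held 268 genes (5.3%), 72 h held 32 (1.66%), 192 h held 117 (4.19%) and the change from 18 h to 192 h held 146 (5.85%). The proliferation genes among these numbered 0 for both earlier times, 2 of 3 for 192 h and 2 of 3 for the change, being Prmt5 and Tob2 each time. Since the genes were chosen with these ratios known, nothing is read from those counts.

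**Figure D2:**
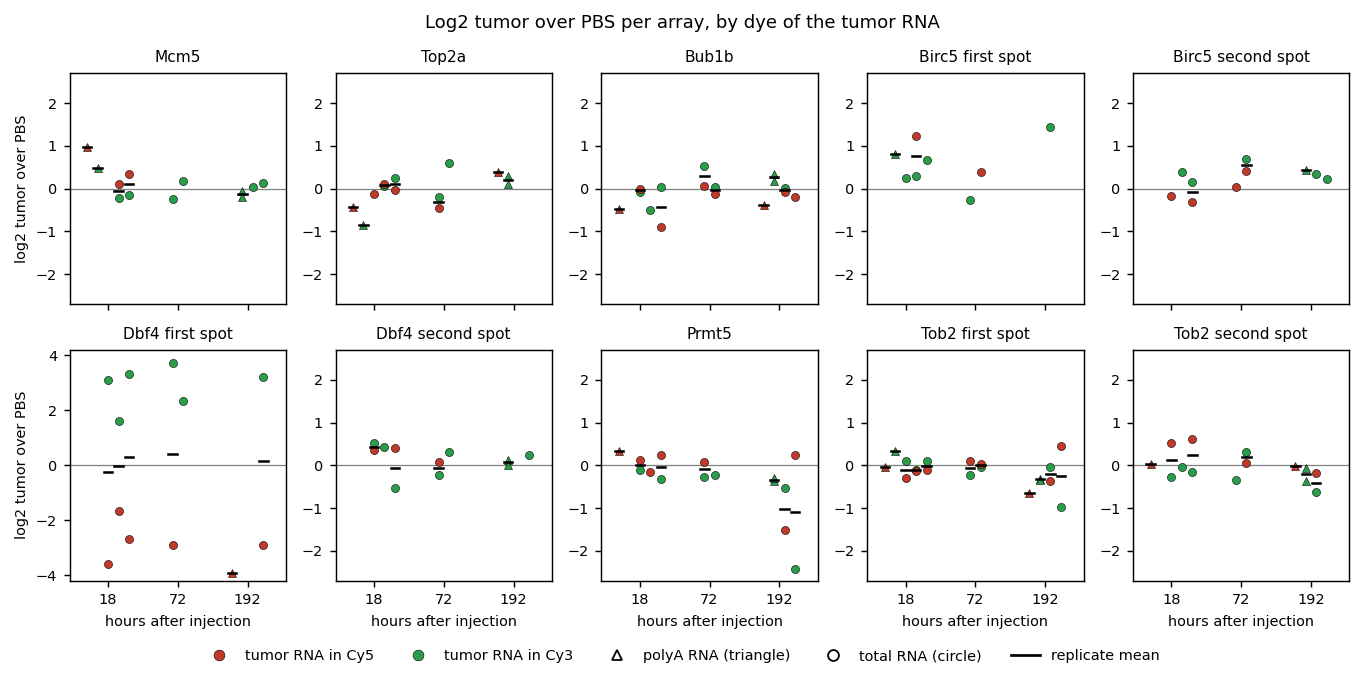
Log2 ratio of tumor over PBS on each array (points) against hours after injection, for the 10 spots. Colour gives the dye of the tumor RNA, triangles are polyA and circles total RNA, and black lines are replicate means. The y axis of the first spot of Dbf4 is wider, and there all arrays with tumor in Cy3 lie above 0 and all with tumor in Cy5 below it.

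Mcm5, the helicase subunit, had its highest ratios in the polyA replicates of 18 h. Its log2 tumor over PBS was 0.97 and 0.49 in polyA replicates 1 and 2, and -0.05 and 0.10 in total RNA replicates 4 and 5. The 2 kinds of RNA did not overlap at 18 h. In the authors' deposited table, on its unknown log scale, polyA replicates 1 and 2 were at -0.03 and 0.25, and total RNA replicates 4 and 5 at 0.03 and 0.10, so that there the kinds did overlap. The fit gave 0.38 ± 0.17 (SE, n = 4), and 0.03 without replicate 1 or without replicate 2, since the dye term then takes up the other polyA value. At 192 h the single replicate with a value, polyA replicate 2, was at -0.12, and no replicate of 72 h gave one. The 18 h value of Mcm5 thus rests on 2 polyA arrays, which held opposite dye orientations, and the fit without a dye term gave the same 0.38.

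Top2a, the sister chromatid topoisomerase, stood below 0 in polyA RNA at 18 h and above 0 at 192 h. At 18 h it was at -0.43 and -0.85 in polyA replicates 1 and 2, and at 0.08 and 0.11 in total RNA replicates 4 and 5. The fit gave -0.27 ± 0.16 (SE, n = 4) at 18 h, -0.12 without replicate 1 and -0.06 without replicate 2. It was -0.75 with median centring in place of loess, and the sign turned to 2.33 ± 1.82 (SE) with values of 0 kept. At 192 h both values came from polyA RNA, 0.40 and 0.20, and the 72 h value was -0.32 in replicate 3. In polyA RNA the 18 h and 192 h values, from 2 replicates each, did not overlap. Replicate 2 of 18 h had the widest spread of ratios over all genes (SD 0.90). In the authors' deposited table, on its unknown log scale, polyA replicates 1 and 2 were at -0.03 and -0.35 at 18 h. There they were at 0.07 and 0.0026 at 192 h. The total RNA replicates of 192 h gave no ratio, because no scan of their 4 arrays had both channels above 0.

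Bub1b, the checkpoint protein and the most often measured of the 7, had values on both sides of 0 at 72 h and 192 h. Its log2 tumor over PBS at 18 h was -0.48, -0.03 and -0.43, and 3 of 3 replicates were below 0. At 72 h it was 0.30 and -0.04, and at 192 h -0.38, 0.26 and -0.03. The values of the 3 times overlapped. The fit gave -0.21 ± 0.14 (SE, n = 3), 0.13 ± 0.16 (SE, n = 2) and -0.05 ± 0.13 (SE, n = 3).

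Birc5 (survivin) was too dim for a fit. Its first spot gave 0.81 in polyA replicate 2 and 0.76 in total RNA replicate 4 of 18 h and no replicate value later. The authors' deposited table lists polyA replicate 2 of 18 h with the opposite sign, at -0.19 on its unknown log scale. Its second spot, of the same accession, gave -0.08 in replicate 5 of 18 h, 0.56 in replicate 4 of 72 h and 0.45 in polyA replicate 2 of 192 h. No replicate had a value on both spots, so they could not be set against each other. The scans with PBS alone above 0 numbered 20 of 57 for the first spot, and those with tumor alone 12. Over all annotated spots, PBS alone made up 15.1%, 34% and 23.2% of the scans at 18, 72 and 192 h. Tumor alone made up 16.2%, 6.39% and 18.3% there.

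Dbf4, the activator of Cdc7, gave ratios on its first spot whose sign followed the dye of the tumor RNA. All 6 arrays with tumor in Cy3 were above 0, from 1.62 to 3.72 in log2 tumor over PBS, and all 6 with tumor in Cy5 were below 0, from -3.93 to -1.65. Averaged over both orientations, replicates 3, 4 and 5 of 18 h were at -0.24, -0.01 and 0.31, replicate 3 of 72 h was at 0.41 and replicate 4 of 192 h at 0.15. These averages are smaller than any single array in size and lie on both sides of 0. PolyA replicate 1 of 192 h, a single array with tumor in Cy5, stood alone at -3.93. Before any normalization the log2 ratio of Cy5 to Cy3 lay between -4.66 and -1.12, below the median of its array on 12 of 12 arrays.

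The dye-swapped replicates allow the effect of the dye to be tested, because the tumor effect cancels in the mean of the unturned log2 ratios of Cy5 over Cy3. That mean was -3.33, -1.63 and -2.99 in replicates 3, 4 and 5 of 18 h for the first spot of Dbf4, -3.31 in replicate 3 of 72 h and -3.06 in replicate 4 of 192 h. The fit gave -2.87 ± 0.22 (SE, n = 5), which is 7.29-fold more signal in Cy3 than in Cy5, with a 95% interval of -3.36 to -2.37 and an adjusted p of 0.000504 (limma, Benjamini-Hochberg). Over all genes, 32 of 4133 (0.774%) passed, all of them brighter in Cy3, and 44 had an estimate under -1 against 0 above 1. By size Dbf4 ranked 2nd of the 4133, and 8 genes lay under -2. Of the 4 proliferation genes tested, Dbf4 passed. The other 3 did not pass and had estimates of -0.16 ± 0.10 (SE, n = 5, interval -0.39 to 0.06) for Bub1b, 0.29 ± 0.21 (SE, n = 5, interval -0.18 to 0.76) for Prmt5 and 0.06 ± 0.11 (SE, n = 7, interval -0.17 to 0.29) for Tob2. The estimate of Prmt5 was 0.02 without 192 h replicate 4 and 0.48 without 192 h replicate 3. Mcm5, Top2a and Birc5 had dye-swapped values in 2, 3 and 1 replicates and were not tested.

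**Figure D3:**
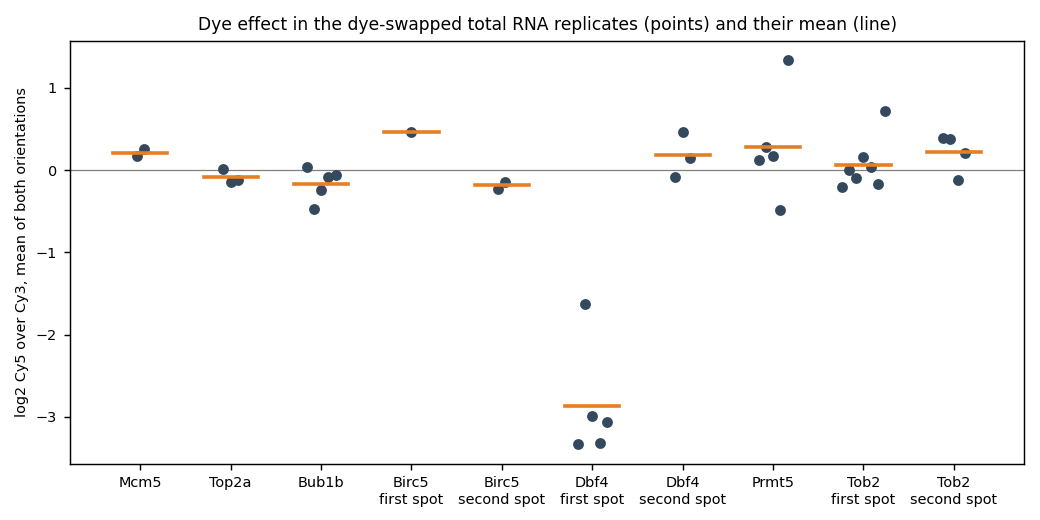
Mean log2 ratio of Cy5 over Cy3 over both dye orientations, for each total RNA replicate (points) and spot, with the mean over replicates (line). The first spot of Dbf4 lies between -3.33 and -1.63, while the second spot of the same gene lies between -0.08 and 0.47.

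A second spot of Dbf4, annotated with the same accession, did not show this. Its dye effect was -0.08, 0.47 and 0.15 in 3 replicates, with a mean of 0.18 ± 0.28 (SD, n = 3), and the values of the 2 spots did not overlap. Its log2 tumor over PBS was 0.43 and -0.06 at 18 h, -0.07 at 72 h and 0.07 at 192 h. On single arrays it ran from -0.52 to 0.52. It was much dimmer, with a median brightness rank of 33.6 against 79.9. The first spot had Cy3 alone above 0 in 24 scans and Cy5 alone in 0. Over all annotated spots, Cy3 alone made up 32.2% and Cy5 alone 4.78% of the scans. Sequences of the printed probes were not used here, so it is not known whether the 2 spots carry the same oligonucleotide.

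**Figure D4:**
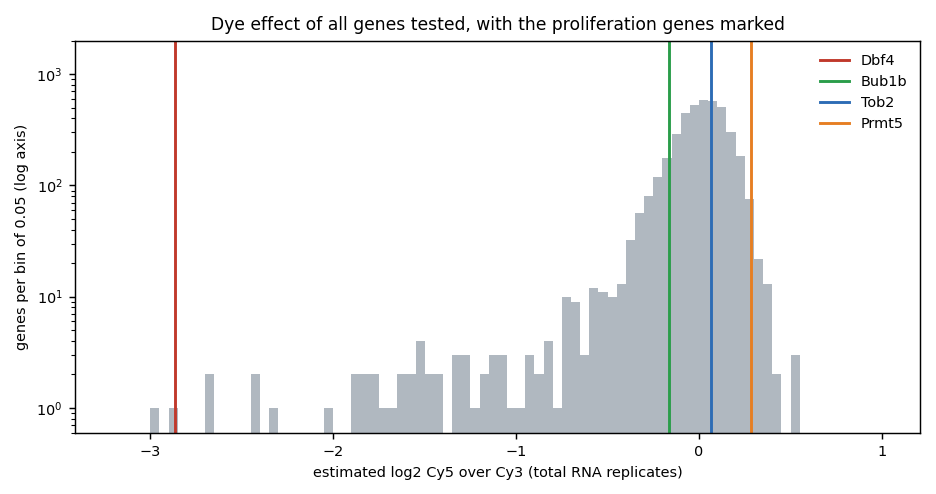
Histogram of the estimated log2 ratio of Cy5 over Cy3 for the 4133 genes tested (x axis, bins of 0.05, y axis on a log scale), with lines at the proliferation genes tested. Dbf4 lies at -2.87 in the thin left tail, and Bub1b, Tob2 and Prmt5 lie within the main body.

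Prmt5, the arginine methyltransferase, had its lowest ratios at 192 h. Its log2 tumor over PBS was 0.34, 0.01 and -0.05 at 18 h (replicates 1, 3 and 5), -0.10 at 72 h (replicate 3) and -0.33, -1.02 and -1.10 at 192 h (replicates 2, 3 and 4). The 192 h values lay below all others and did not overlap with those of 18 h. The polyA replicates held different dyes for tumor, Cy5 for 0.34 at 18 h and Cy3 for -0.33 at 192 h. Read singly, the array of 18 h replicate 5 with tumor in Cy3 was at -0.33 as well. Whether the dye adds to this gap was not tested. The fit gave 0.16 ± 0.19 (SE, n = 3) at 18 h and -0.88 ± 0.19 (SE, n = 3) at 192 h. Without a dye term the 18 h estimate was 0.10. The arrays behind the 2 total RNA replicates of 192 h disagreed. In replicate 3 they read -0.53 with tumor in Cy3 and -1.51 with tumor in Cy5, and in replicate 4 they read -2.44 and 0.24. Both arrays of replicate 4 rest on 1 scan each, and the array at -1.51 on 1 as well. Across the whole study, 0 of 8 arrays with tumor in Cy3 and 5 of 7 with tumor in Cy5 were above 0. The mean of the 2 total RNA replicates of 192 h, which hold both orientations, was -1.06, and the fit without a dye term gave -0.82.

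Tob2, the growth-slowing Tob/Btg protein, was the one gene of the 7 with a value in all 11 replicates, and all 4 of its 192 h values were below 0. At 18 h the first spot was at -0.04, 0.33, -0.10, -0.12 and -0.01 in replicates 1 to 5, and at 72 h at -0.06 and 0.0006. At 192 h it was at -0.64, -0.32, -0.20 and -0.26. The 192 h values did not overlap with those of either earlier time. The fit gave 0.01 ± 0.09 (SE, n = 5), -0.03 ± 0.14 (SE, n = 2) and -0.36 ± 0.10 (SE, n = 4). Within replicate 4 of 192 h the orientations again disagreed, at -0.97 with tumor in Cy3 and 0.46 with tumor in Cy5. Both of these arrays rest on 1 scan each. The lone array behind -0.64 and the Cy5 array of replicate 3 also rest on 1 scan each. The second Tob2 spot, annotated with another transcript accession, was at 0.03, 0.13 and 0.23 at 18 h, at 0.19 in 1 replicate of 72 h, and at -0.02, -0.21 and -0.40 at 192 h. Its 18 h and 192 h values did not overlap either, and both arrays behind -0.40 rest on 1 scan each. In the authors' deposited table, whose log base and normalization are unknown, the first spot was listed for 2 replicates of 192 h, at -0.03 and 0.07, and Prmt5 for 1, at -0.16.

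Scans in which 1 channel was at 0 enter no ratio, and at 192 h they were unevenly divided for both genes. Of 21 scans at 192 h, PBS alone was above 0 in 8 for Prmt5 and in 10 for the first spot of Tob2, and tumor alone in 0 for each. Over all annotated spots at 192 h, PBS alone made up 23.2% and tumor alone 18.3%. The second Tob2 spot had 6 scans with PBS alone and 4 with tumor alone. At 18 h Prmt5 had 4 scans with PBS alone and 3 with tumor alone, and Tob2 had 1 and 3. The 3 scans of an array are not independent, and these counts carry no test.

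For Tob2, the rule for genes of like pattern could be applied, because it had at least 9 replicates. Among 1513 genes with at least 9 shared replicates, the highest Spearman rho of the replicate ratios belonged to Clp1, a kinase of RNA processing, at 0.97, and to Usp54, a member of the deubiquitinase family, at 0.92, each over 9 replicates. These are the 2 highest of many and are given as a description.

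Other genes of the same pathways were described from lists, and no member passed at any time. Over all genes tested, 2489 of 5054 were above 0 at 18 h, 1017 of 1931 at 72 h and 1172 of 2793 at 192 h. For replication licensing and forks, 16 genes were tested at 18 h, 7 of them above 0, with a median log2 tumor over PBS of -0.05, beside -0.0028 over all genes. At 192 h 4 were tested, 1 of them above 0, with a median of -0.10 beside -0.03. Averages over the times tested, here and for the lists below, cover only genes tested at 2 or more times. On this average Rfc3, a clamp loader subunit, was highest at 0.14 and Mcm7, a partner of Mcm5 in the helicase, lowest at -0.10. Mcm7 at 18 h ran from -2.19 to 0.33 over 5 replicates. For mitosis and the spindle checkpoint, 1 of 10 genes was above 0 at 18 h, with a median of -0.11, 2 of 3 at 72 h and 2 of 2 at 192 h. Among its genes tested at 2 or more times, Mad1l1, a partner of the checkpoint, had the highest average at 0.06. Smc4, a condensin subunit, had the lowest of these averages at 0.02. At 18 h alone the lowest gene of the list was at -0.21.

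For cyclins, their kinases and inhibitors, 4 of 11 genes were above 0 at 18 h, with a median of -0.03, 2 of 4 at 72 h and 1 of 3 at 192 h. E2f5, a repressive E2F factor, was the highest on average at 0.24, and Ccnh, a cyclin of the CDK-activating kinase, the lowest at -0.11. This average of E2f5 joins 0.87 at 18 h with -0.38 at 72 h, where it was the lowest of its list. At 192 h it was at -1.14 in 2 replicates, too few for a test. E2f5 was also among the 32 genes with a dye effect, at -1.75 ± 0.12 (SE, n = 4, adjusted p = 0.000504 in limma). At 18 h its polyA values were -1.48 with tumor in Cy5 and 3.86 with tumor in Cy3. For the Tob/Btg family and deadenylase partners, 4 of 6 were above 0 at 18 h, 1 of 2 at 72 h and 0 of 4 at 192 h, with a 192 h median of -0.05 beside -0.03 over all genes. Tob1, the closest relative of Tob2, was at -0.02 ± 0.12 (SE, n = 4) at 192 h, and Btg1 was highest on average at 0.06.

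For the arginine methyltransferases and partners of Prmt5, 1 of 6 genes was above 0 at 18 h and 2 of 3 at 192 h, with medians of -0.09 and 0.09. Wdr77, the subunit that forms the active complex with Prmt5, was at 0.09 ± 0.12 (SE, n = 4) at 192 h, where Prmt5 itself was at -0.88. Carm1, another arginine methyltransferase, had the lowest average at -0.17. Of the baculoviral repeat family, to which Birc5 belongs, Xiap was tested at 18 h and 192 h, at 0.14 ± 0.13 (SE, n = 4) and -0.01 ± 0.15 (SE, n = 3).

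Markers of the cell types that could hold dividing cells were also measured, and none of them passed. At 192 h, 0 of 2 oligodendrocyte precursor genes and 0 of 1 microglial gene tested were above 0. Of the tanycyte, ependymal and choroid plexus genes tested, 1 of 2 was above 0. The medians of these lists, in this order, were -0.12, -0.06 and 0.0023. The medians of the same lists at 18 h were 0.06 (2 genes), 0.05 (5 genes) and -0.08 (4 genes). Of the markers of other tissues, 2 of 2 pituitary genes were above 0 at 18 h, with a median of 0.22, and 0 of 2 at 192 h, with a median of -0.15. Genes of epithelial and tumor cells were above 0 in 3 of 3 at 18 h, with a median of 0.13, and none could be tested at 192 h. Their part in the values of the proliferation genes was not tested. No neutrophil marker could be tested at any time.

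Brightness was set beside the kind of RNA, since polyA selection enriches mRNA. Brightness here is the mean log2 of both channels less the median of the array. Top2a was at -0.27 and 1.20 in polyA replicates 1 and 2 of 18 h and at 0.73 and 1.42 in those of 192 h. In total RNA it was at -0.66, 0.29 and -0.63 at 18 h and at -1.07 and -0.53 at 72 h. The groups overlapped through polyA replicate 1 of 18 h and total RNA replicate 4 of 18 h. The difference was 1.29 ± 0.45 (SE, n = 4 against 5), or 2.44-fold brighter in polyA, with a 95% interval of 0.33 to 2.25, and it did not pass (adjusted p = 0.26 in limma). It passed where values of 0 were kept by adding 50 to each channel (adjusted p = 0.0254) and on the percentile rank (adjusted p = 0.0223), both of which use all 11 replicates. Over all genes, 11 of 2892 (0.38%) passed in the main comparison, and none of the 4 proliferation genes tested was among them. At an unadjusted p under 0.05 Top2a was the single one of the 4, beside 345 genes (11.9%) in all.

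The other 3 genes tested for brightness did not pass. The difference of polyA from total RNA was -0.05 (interval -1.14 to 1.04) for Mcm5, -0.06 (interval -0.96 to 0.83) for Bub1b and -0.09 (interval -0.88 to 0.69) for Tob2. With values of 0 kept, the difference turned to 4.08 ± 1.59 (SE) for Mcm5 and to 0.50 for Tob2, and by rank Mcm5 was 20.4 ± 9.44 (SE) percentile points higher in polyA, none of which passed in limma. Birc5 was measured in 1 polyA replicate at 0.85 and in 6 total RNA replicates from -4.39 to -0.27. Dbf4 was at -2.05 in 1 polyA replicate and from -0.52 to 0.47 in 6 of total RNA. The kind of RNA goes with the print platform and the order of the arrays, and their effects cannot be told apart.

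**Figure D5:**
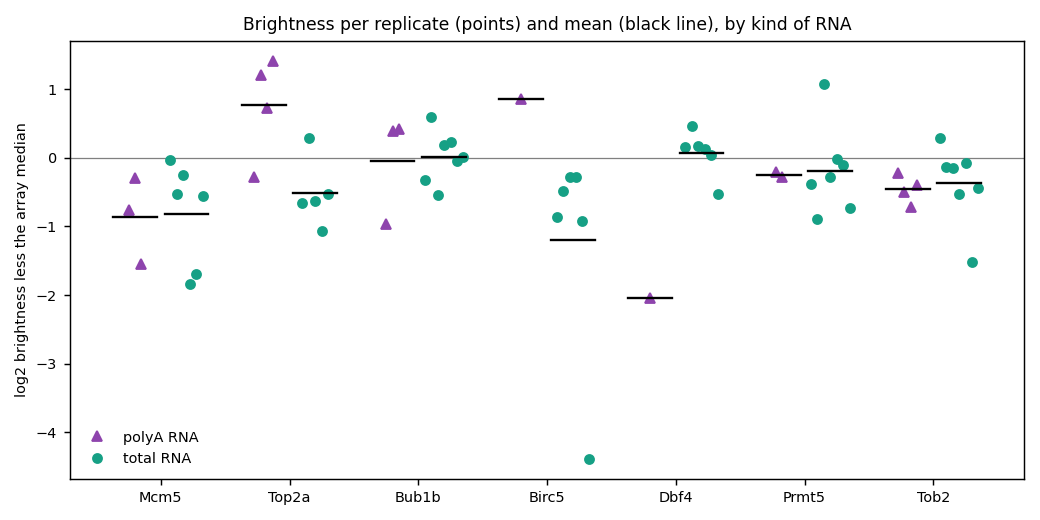
Brightness per replicate (log2 of both channels averaged, less the array median) of the 7 genes in polyA (triangles) and total RNA (circles), with means as black lines. The mean of Top2a is 0.77 in polyA and -0.52 in total RNA, while polyA less total RNA is -0.05 for Mcm5, -0.06 for Bub1b and -0.09 for Tob2.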

How the data were processed

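Hypothalamus RNA of tumor-bearing and PBS-injected mice was hybridised to 2-colour arrays of 10080 spots, each scanned 3 times. Per the file headers, the deposited values are spot intensities in channels A and B with the local background subtracted. The software is not given in the sources used here. Log ratios of unstated base fill the authors' deposited value table, which was treated as a score and used as an alternative. Its medians per array lie between -0.00431 and 0.00789, so arrays were centred. Over spots it correlated positively with the scanner ratios on 19 of 19 arrays (r from 0.591 to 0.847). Its scale stays unknown, and single values can differ in sign.

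From these files, log2 ratios were fitted by loess per scan (span 0.3, 4 iterations) where both channels were above 0, averaged over scans and then arrays. A total RNA replicate needed both orientations. Of 25 arrays, 6 were left out by a choice made in an earlier analysis of these data, being all of 72 h replicates 1 and 2 and 1 of 192 h replicate 1. The intensities, already background-subtracted, were used as given. Fits were made in R 4.3.3 with the packages limma (3.58.1) and data.table (version 1.17.8), by lmFit and eBayes with Benjamini-Hochberg adjustment over all genes tested (threshold 0.05) and with 1 coefficient for each time and a term for the dye. At least 3, 2 and 3 replicates were needed at 18, 72 and 192 h, 4 for the dye effect, and 3 polyA and 5 total RNA replicates for brightness. What the dye term takes up, such as a lone polyA value, enters neither estimate nor SE. Where a gene had several spots, the one with the highest mean brightness rank stood for it. Spots were named through the platform annotation, where 9074 spots carried a single gene symbol, 12 several and 994 none. RefSeq names were matched for 8988.

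The 7 genes, the gene lists and the tests were chosen with earlier results of these data known. Genes named were all 7 and, for those with at least 9 replicates, the 2 genes of highest Spearman rho. The highest and lowest of each pathway list, averaged over the times among genes tested at 2 or more, were also named. The fits were tested on simulated data with known changes of 2 log2 units over independent noise, so smaller changes were not tried.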

Additional observations from a re-analysis of the deposited data

Results flagged for a closer look

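Of 18 groups of 4 to 10 replicate values of the 7 genes, 4 held a value far from the others, where chance gives about 1 group in 20. The first spot of Tob2 was at 0.33 in 18 h replicate 2, a polyA array, with the other 4 between -0.12 and -0.01. In the ratios over all genes this replicate had the widest spread, with an SD of 0.90 against 0.21 to 0.56 in the others. The dye effect of the first spot of Dbf4 was -1.63 in 18 h replicate 4, with the other 4 between -3.33 and -2.99, all on the same side of 0. The dye effect of the first spot of Tob2 was 0.71 in 192 h replicate 4, with the other 6 between -0.20 and 0.16. The brightness of Birc5 was -4.39 in 192 h replicate 3, with the other 5 total RNA replicates between -0.91 and -0.27.

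The second Tob2 spot moved to opposite sides of 0 at the 2 times. Its log2 tumor over PBS lay between 0.0315 and 0.23 in 3 of 3 replicates of 18 h and between -0.40 and -0.0225 in 3 of 3 replicates of 192 h. This difference between the times was not tested for that spot.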

How the results depend on the processing

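The counts of 0 genes for tumor over PBS at 18 h and for 192 h minus 18 h stayed at 0 under every alternative run. At 72 h the count was 329 with 50 added to both channels and zeros kept, and 0 to 1 when a replicate was left out, with the 1 coming without 72 h replicate 4, where the lone sample of 72 h is assumed to vary like the other times. At 192 h it was 1, Prmt5, with total RNA alone, where 2 replicates sufficed because only 2 were left (nothing is read from this, since the comparison chose the gene), and 0 to 2 when a replicate was left out, with the 2, neither of them a proliferation gene, coming without 18 h replicate 2. The replicate block, which pairs 18 h and 192 h by number, gave 0 at each time and for the change. Same-numbered replicates correlated at 0.549, 0.387, -0.061 and -0.043, and replicates 1 and 2 also share kind of RNA and dye orientation. Whether the numbers pair the samples cannot be told from these values. The 32 genes with a dye effect became 17 where both subtracted intensities exceeded the local background. The first spot of Dbf4 had too few values there. The 32 became 117 with median centring, 0 with zeros kept and 17 in the authors' table. They became 17 to 38 when a replicate was left out (17 without 18 h replicate 5, 20 without 18 h replicate 3), with Dbf4 among them each time. The 11 genes differing in brightness became 76 with zeros kept and 7 where both subtracted intensities exceeded the local background. They became 3 with the median of the scans and 189 by rank. With a replicate left out they became 2 to 22 (2 without 18 h replicate 3, 22 without 18 h replicate 4). Of the 11 replicates, 9 moved the count by over 1.5 times. The cause was not tested.

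The dye effect of Dbf4 was -2.81 with zeros kept (adjusted p = 0.598), and -1.85 as the mean of both its spots (adjusted p = 0.00343). The values of Prmt5 and Tob2 at 192 h ranged from -3.31 and -3.94 with zeros kept to -0.82 without a dye term and -0.23 with total RNA alone. These are refits of the same arrays and no support for values that chose the genes. The authors' table gave Tob2 in 2 replicates of 192 h, on both sides of 0, and neither gene reached the minimum there. Leaving out a single 192 h replicate that measured Prmt5 left it under the minimum of 3. Median centring shifted the median of all genes at 192 h to -0.14. Below the depth at which both channels exceed 0, no ratio exists, and 34.3% of the intensities were 0.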
